A study of Mus musculus with 3 samples.

Results

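Adult mouse cardiomyocytes (ACMs) exposed in culture to oncostatin M (OSM) were compared with ACMs exposed to interleukin-6 (IL-6), gene by gene, to ask how the transcriptomes under these related cytokines differ. The cells came from wild-type (WT) hearts of mice 8 to 10 weeks old and were plated on laminin. Animals of both sexes were used, as the methods of the study state. All cells then stood in serum-free M199 medium with 0.1% bovine serum albumin (BSA), the contraction inhibitor BDM, insulin-transferrin-selenium and a lipid supplement. A first group received mouse OSM at 10 ng/mL and another human IL-6 at 10 ng/mL, each for 16 h, and vehicle-treated cells received BSA alone. RNA of each condition was pooled into 1 library, so the series holds 3 libraries, of which 2 were compared here. The members are the genes with at least 10 counts summed over the OSM and IL-6 libraries, which were 15544 of the 56748 genes in the table. Another 36267 genes had 0 counts in both libraries and 4937 had between 1 and 9 counts in total. Vehicle counts are quoted beside the named genes as a further reading and enter no fold change.

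OSM and IL-6 belong to the family of cytokines that signal through gp130, the shared receptor chain encoded by Il6st. IL-6 first binds its own receptor, IL-6Rα (Il6ra), whereas mouse OSM binds the OSM receptor chain (Osmr), and each pair then engages gp130. The receptors carry Janus kinases (JAKs), which phosphorylate STAT transcription factors, mainly STAT3, and STAT3 induces Socs3, the feedback inhibitor of gp130 signaling. In the heart this pathway is known for hypertrophic growth, protection of stressed myocytes and, for OSM, a partial loss of the mature myocyte state. STAT dimers recognise palindromes of the form TTCNNNGAA, where N is any base, and STAT3 favours TTCCNGGAA, a subset of them.

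STAT motifs near the starts of leading genes are shown first, because the genes with the largest differences include known STAT3 targets. The windows searched, on both strands, were RefSeq promoters (250 bases before to 50 after the start, GRCm38.p6) and, as a wider search added after the data had been seen, 500 bases before to 100 after the GENCODE M39 canonical start (GRCm39). Of the 18 leading genes higher with OSM, 11 had a RefSeq promoter and 3 of these held a TTCNNNGAA match, in Socs3, Steap4 and Fgf23. In the GRCm39 windows 3 of 18 held a match, in Socs3, Fgf23 and Serpinb1a. Of the 18 leading genes lower with OSM, 0 of 13 with a RefSeq promoter and 1 of 17 with a GRCm39 window held a match. Over all compared protein-coding genes the motif occurred in 8.27% of RefSeq promoters and 15.2% of GRCm39 windows. Each match is printed 5′ to 3′ on the strand of its gene, with up to 10 flanking bases on either side and the motif in capitals.
Socs3, GRCm39 chr11:117860055-117860083, minus strand, 50 bases after the canonical start: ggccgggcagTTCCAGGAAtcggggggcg
Socs3, GRCm39 chr11:117860328-117860356, minus strand, 223 bases before the canonical start: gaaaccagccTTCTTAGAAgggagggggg
Steap4, GRCm38.p6 chr5:7960346-7960374, plus strand, 116 bases before the RefSeq start: ggttgaactcTTCCCGGAAactttgcttc
Fgf23, GRCm39 chr6:127049754-127049782, plus strand, 101 bases before the canonical start: tctgggctttTTCTTTGAAtggatgatta
Serpinb1a, GRCm39 chr13:33035069-33035087, minus strand, 91 bases after the canonical start, at the edge of its window: ctggcacctcTTCCAGGAA
The Socs3, Steap4 and Serpinb1a sequences include the form TTCCNGGAA. A match is a description of these letters and not a bound site.

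The libraries held 26362446 counts with IL-6, 30773001 with OSM and 24939980 with vehicle, and each detected between 18443 and 18537 genes. Since every condition is 1 library, spread between replicates could not be measured and P-values are not given. The error given with each fold change is the 95% Clopper-Pearson interval of the OSM and IL-6 counts given their sum, which covers counting error only and compares the libraries, not the conditions. The mitochondrial share of counts was 16.1% with IL-6, 13.6% with OSM and 17.4% with vehicle. Cardiomyocyte markers were abundant in both libraries, and 9 of 10 were not called, with a median log2 difference of 0.41; Ryr2 was lower with OSM. None of the 12 endothelial markers was called (median 0.23) and their summed FPKM was 12.6 with IL-6 and 17.5 with OSM. Of the macrophage markers, 2 of 5 compared were called higher, Cd68 and Lyz2, and the summed FPKM of the list was 14.9 with IL-6 and 40.2 with OSM, while C1qa, C1qb, C1qc and Tyrobp had 0 counts in both libraries. In such bulk RNA, fewer cells of a type and less RNA per cell cannot be told apart. No neutrophil, B cell or adipocyte marker reached 10 counts. Xist, a transcript of female cells, had 725 counts with IL-6, 279 with OSM and 753 with vehicle, and the 4 Y-linked genes compared had a median log2 difference of -0.68, none of them called. The part of the sex mix of the pools, or of any other library difference, in the results was not tested.

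Of the compared genes, 659 were higher with OSM than with IL-6 (4.24%) and 843 were lower (5.42%), counting a gene when its whole interval lay beyond 2-fold. The median log2 fold change over all compared genes was 0.0028, and 8990 genes (57.8%) had a point estimate within 1.5-fold. The larger differences lay on the OSM-high side. Genes whose interval lay beyond 4-fold numbered 151 higher and 124 lower, and beyond 8-fold 50 higher and 16 lower. Many called genes were scarce. The median called gene had 82 counts in its higher library and 10 in its lower library among those higher with OSM, and 69 and 15 among those lower with OSM. Protein-coding genes made up 81.8% of the compared genes, 79.7% of those higher (95% CI 76.4 to 82.7) and 68.4% of those lower (95% CI 65.2 to 71.6). Long noncoding RNAs made up 9.35% of the compared genes, 12.1% of those higher and 19.0% of those lower.

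**Figure D1:**
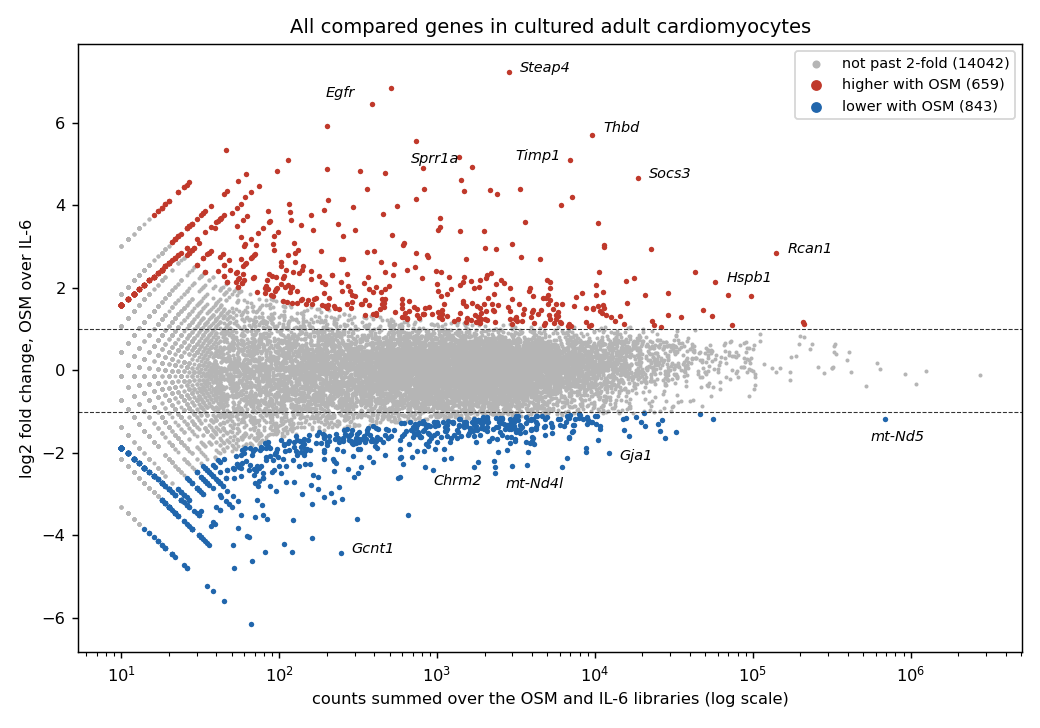
Log2 fold change (OSM over IL-6) of each of the 15544 compared genes against its counts summed over both libraries on a log scale, with dashed lines at 2-fold. Genes at 0 counts in a library are drawn against a floor of 3 counts. The 659 red genes are higher and the 843 blue genes lower with OSM; Steap4 and Thbd stand far above the cloud, whereas the abundant lower genes lie close to the lower line.

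The differences ran with gene length. Among 9484 protein-coding genes with at least 200 counts, split into eighths by length, the median log2 fold change went from 0.46 in the shortest eighth (median length 1586 bases) to -0.53 in the longest (12137 bases). Spearman's rho between length and log2 fold change was -0.51 across these genes, which share the same 2 libraries and are not replicates. In the shortest eighth 67 of 1186 genes were higher and 6 lower, and in the longest 13 were higher and 168 lower. Gene lengths and a value or call with this trend removed by lowess are therefore given beside results they change, and the part of RNA integrity or library preparation in the trend was not tested. With the trend removed neither Cd68 nor Lyz2 was called. Xist went from log2 -1.52 to -0.73 and was not called either. Corrected in this way, 538 genes were higher, 466 of them also called without the correction. The genes lower numbered 758, with 601 of them also called without it.

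**Figure D2:**
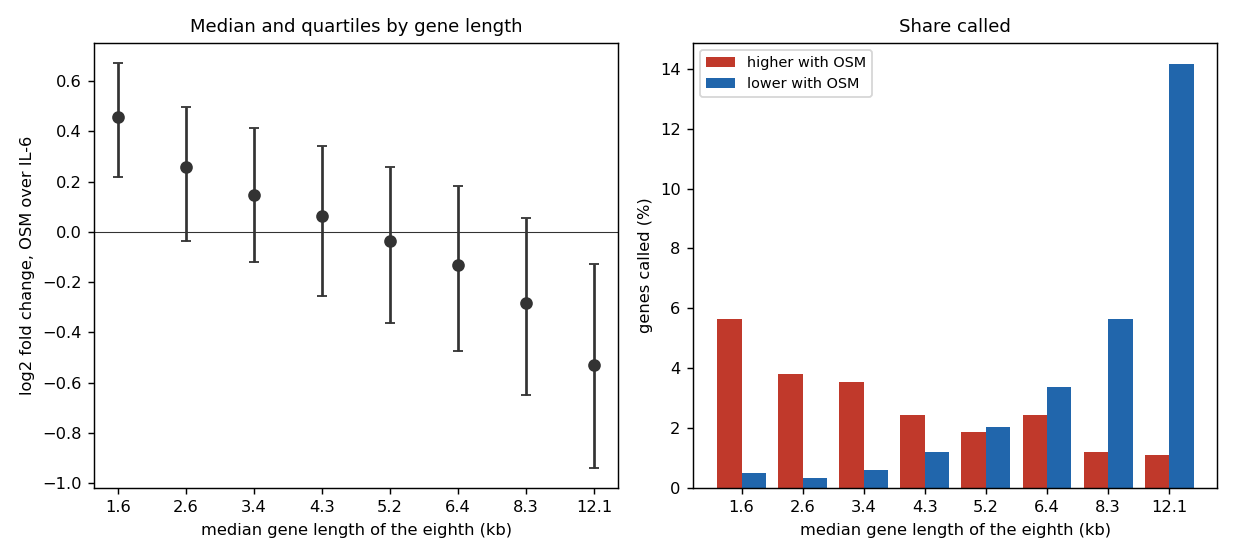
Left, the median (point) and quartiles (bars) of the log2 fold change in eighths of protein-coding genes by length, labelled by their median length in kb. Right, the percentage of genes called in each eighth. Medians pass from 0.46 to -0.53 as genes become longer, and the share called lower reaches 14.2% in the longest eighth.

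The genes described first had the largest folds higher with OSM among called protein-coding genes at 1 FPKM (fragments scaled by gene length and library size) or more in both libraries. Thbd encodes thrombomodulin, the endothelial-type cofactor that turns thrombin toward protein C activation. It had 165 counts with IL-6, 9450 with OSM and 145 with vehicle, a 51.9-fold difference (log2 5.70, 95% CI 5.48 to 5.93). Timp1, an inhibitor of matrix metalloproteinases, had 178 counts with IL-6, 6739 with OSM and 203 with vehicle, 34.3-fold higher with OSM (log2 5.10, 95% CI 4.89 to 5.32). For each of these genes the IL-6 and vehicle counts lay close together and the OSM count stood alone.

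Sprr1a, a small proline-rich protein known as a stress-induced gene of myocytes, had 48 counts with IL-6, 1623 with OSM and 68 with vehicle (30.7-fold). Socs3 had 646 counts with IL-6, 18194 with OSM and 670 with vehicle (25.5-fold; log2 4.67, 95% CI 4.56 to 4.79). Serpina3n, a secreted serine protease inhibitor of the acute phase, had 90, 2059 and 45 counts in the same order and was 20.7-fold higher. Here the IL-6 count also stood above the vehicle count.

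S100a10 and Anxa2 encode the subunits of a heterotetramer at the cell surface that binds plasminogen and its activator. S100a10 had 63 counts with IL-6, 1412 with OSM and 82 with vehicle, 20.3-fold higher with OSM. Anxa2 had 334, 6813 and 395 counts, 18.5-fold higher. Their intervals overlapped (log2 3.98 to 4.73 and 4.05 to 4.37). Serpinb1a, an intracellular inhibitor of neutrophil serine proteases, had 107, 2289 and 106 counts and was 19.4-fold higher.

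Angptl4, a secreted inhibitor of lipoprotein lipase, had 320 counts with IL-6, 5741 with OSM and 411 with vehicle (16.3-fold). Rnd1, a small GTP-binding protein that loosens the actin cytoskeleton, had 251, 3350 and 270 counts (12.1-fold). Bcr, a regulator of small GTP-binding proteins, had 740, 9708 and 870 counts (11.9-fold). Cebpd, a transcription factor of the acute phase response, had 112, 1288 and 61 counts (10.4-fold). With the length trend removed, all 12 of these genes were still called.

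A second group was near absent with IL-6 and reached 1 FPKM or more with OSM. Steap4, a metalloreductase of the plasma membrane and endosomes, had the largest fold of any gene named here, with 17 counts with IL-6, 2849 with OSM and 18 with vehicle (152-fold; log2 7.25, 95% CI 6.57 to 8.03). Slc10a6, a transporter of sulfated steroids, had 4, 509 and 1 counts (115-fold, log2 CI 5.48 to 8.73). Egfr, the receptor for EGF family growth factors, had 4, 386 and 2 counts (87.5-fold, log2 CI 5.08 to 8.33). Few counts lay behind the IL-6 values, and the intervals of these genes are correspondingly wide.

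Kbtbd11, a member of the kelch and BTB protein family, had 14 counts with IL-6, 726 with OSM and 24 with vehicle (47.0-fold). Phox2a, a homeobox factor best known from noradrenergic neurons, had 0 counts with IL-6, 202 with OSM and 2 with vehicle. It was 61.0-fold higher when 3 counts are taken as the floor of the IL-6 library (lower bound of the interval log2 5.62). Fgf23, the phosphate-regulating hormone, had 0, 114 and 0 counts, 34.4-fold higher against the same floor (lower bound log2 4.78). Of the 659 genes higher with OSM, 137 went from under to over 1 FPKM in this way, 214 were over 1 FPKM in both libraries and 308 were under it in both. In 202 compared genes the IL-6 library had 0 counts, and in 204 the OSM library did. All of them were called, 202 of the 659 higher and 204 of the 843 lower. The rule calls any gene with 0 counts in 1 library once it reaches 10 summed counts, so these calls follow from the filter.

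**Figure D3:**
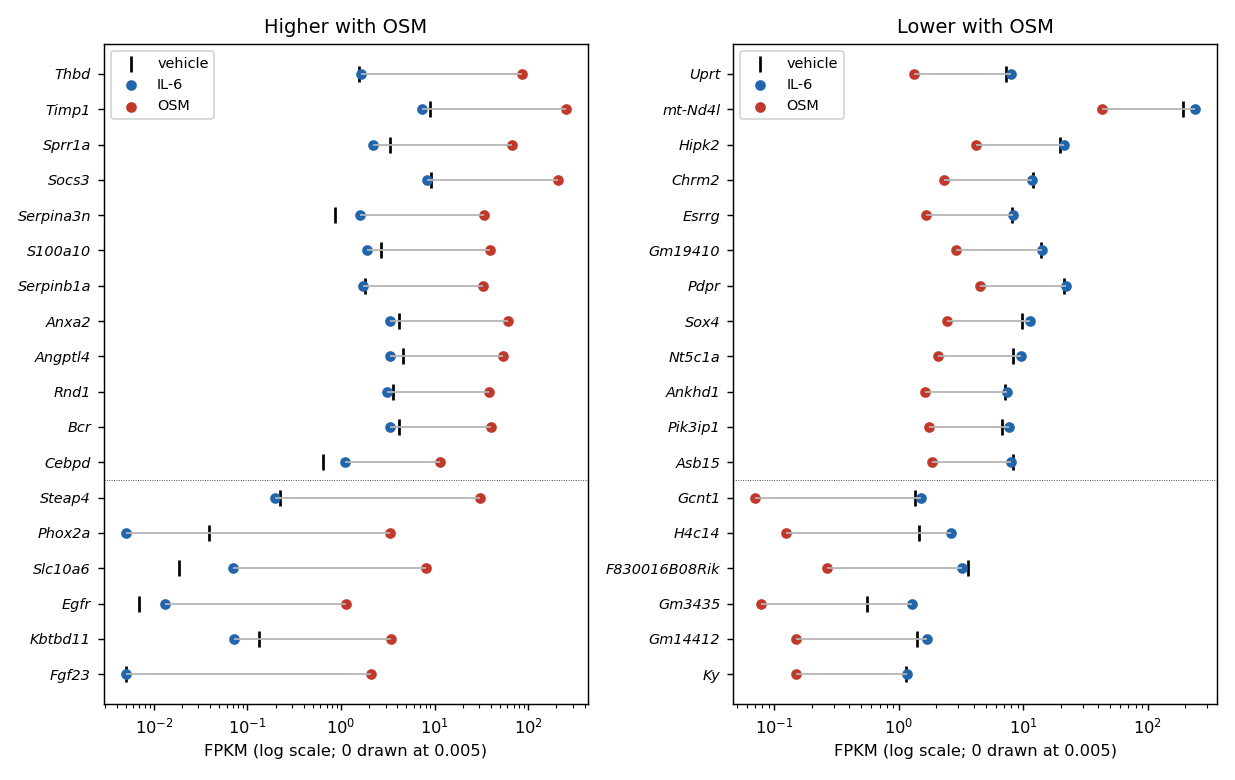
FPKM (log scale) of the 18 leading genes in each direction with vehicle (black tick), IL-6 (blue) and OSM (red); above the dotted line, genes at 1 FPKM or more in both libraries, and below it, genes that cross 1 FPKM. Values of 0 are drawn at 0.005. The OSM point is separated from the other libraries in every row, and the gaps are wider among the genes higher with OSM, up to 152-fold in Steap4, than among those lower.

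Of the receptor genes, 1 was called, Osmr. Osmr, the ligand-specific chain for OSM, had 1199 counts with IL-6, 2929 with OSM and 1023 with vehicle, 2.21-fold higher with OSM (log2 1.15, 95% CI 1.05 to 1.25). On the per-length scale this was 3.65 FPKM with IL-6 and 8.10 FPKM with OSM. Il6st, which encodes gp130, stood at 63.5 FPKM with IL-6, 41.8 with OSM and 61.8 with vehicle, a log2 difference of -0.60 that was not called. Il6st was thus the most abundant receptor of the family in both libraries, and Il6ra was near the limit of detection, with 8 counts with IL-6, 14 with OSM and 24 with vehicle (0.034, 0.054 and 0.11 FPKM).

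Lifr, the receptor chain for leukemia inhibitory factor, had 805 counts with IL-6, 729 with OSM and 864 with vehicle. Il11ra1 had 1259, 1814 and 1253 counts, although 68.2% of its transcript matches sequence elsewhere in the genome at 97% identity or more, so its count is uncertain. Cntfr had 13, 2 and 14 counts. None of these receptors was called. Il31ra and Ebi3 had 0 counts in all libraries, and Il27ra had 0, 4 and 0.

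Among the ligands of the family, only Il6 was called, with 0 counts with IL-6, 42 with OSM and 4 with vehicle. Against the floor of 3 counts it was 12.7-fold higher with OSM (lower bound of the interval log2 3.30). Clcf1, a ligand that signals through the CNTF receptor, had 42, 95 and 52 counts (log2 1.04, 95% CI 0.50 to 1.60). Ctf1, cardiotrophin-1, had 102, 91 and 107 counts, Lif 13, 10 and 18, Il11 10, 14 and 13, and Cntf 8, 2 and 2. Osm, Il27 and Il31 had 0 counts in every library. In this list of 12 compared genes 2 were higher and 0 lower, beside 4.24% and 5.42% of all compared genes. The median log2 fold change was 0.030 (-0.052 when scaled by library totals), beside 0.0028 over all compared genes.

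Downstream of the receptors, no kinase gene was called, whereas some genes of the inhibitors were. Jak1 had 5009 counts with IL-6, 4492 with OSM and 4978 with vehicle (log2 -0.30), and Jak2 had 1163, 1213 and 1065 (log2 -0.08, 95% CI -0.20 to 0.04). Tyk2 had 913, 521 and 837 counts (log2 -0.95, 95% CI -1.11 to -0.79) and Jak3 had 150, 272 and 166 (log2 0.72).

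Stat3 had 8947 counts with IL-6, 14412 with OSM and 7953 with vehicle, a 1.46-fold difference (log2 0.55, 95% CI 0.51 to 0.58) that stayed within 2-fold. Stat5a, which with Stat5b transmits growth hormone and prolactin signals, was the STAT gene called, at 674, 1668 and 850 counts (log2 1.17, 95% CI 1.04 to 1.30), with 27.6% of its transcript matched elsewhere. Stat5a overlaps Stat3 by a short stretch on the opposite strand, where reads cannot be told apart if counting ignored the strand. Stat5b, the neighbour of Stat5a in function, had 1717, 1652 and 1614 counts. Stat2 had 218, 266 and 181 counts and Stat6 had 1657, 1649 and 1567. Stat4 had 0 counts.

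Of the SOCS family, which blocks receptor and JAK activity, Socs3 reached 211 FPKM with OSM against 8.25 FPKM with IL-6. Socs1 had 3, 25 and 4 counts with IL-6, OSM and vehicle (log2 2.92). Cish, a family member induced by STAT5, had 215, 617 and 151 counts (log2 1.38, 95% CI 1.15 to 1.61). Socs2 had 287, 595 and 315 counts (log2 0.91, 95% CI 0.70 to 1.12) and was called with the length trend removed (log2 1.27). Socs4, Socs5, Socs6 and Socs7 were not called, with log2 differences of -0.79, -0.12, -0.23 and -0.92.

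The PIAS genes, whose products bind STATs in the nucleus, lay between log2 -0.35 (Pias2) and 0.27 (Pias4). The phosphatase genes Ptpn1 and Ptpn2, whose products remove phosphate from JAKs and STATs, had log2 differences of 0.94 (95% CI 0.82 to 1.06) and 0.84 (95% CI 0.72 to 0.97), and Ptpn11 had -0.52. In all, 4 of 25 compared genes of the list were higher and 0 lower, beside 4.24% and 5.42% of all compared genes. The list median was -0.08 (0.16 with the length trend removed).

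**Figure D4:**
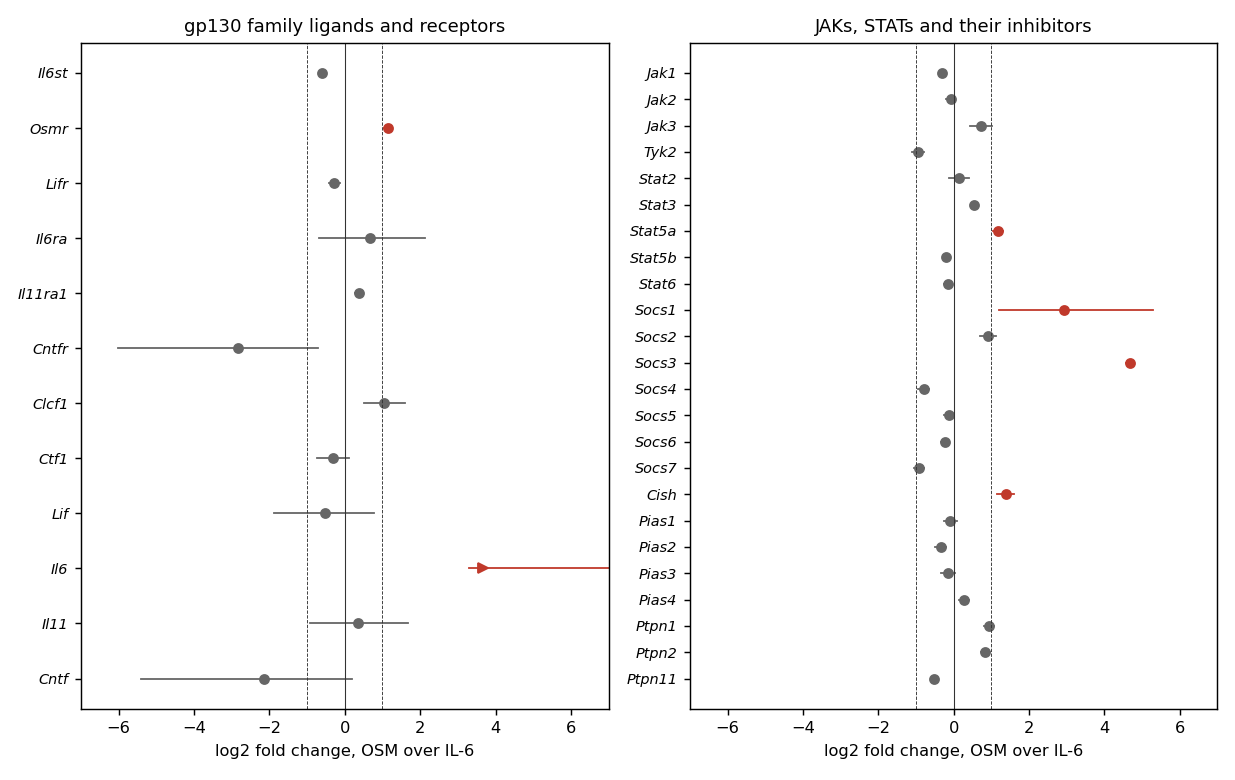
Log2 fold change (OSM over IL-6) with its 95% counting interval for the 12 compared gp130 family genes (left) and for the JAK, STAT and inhibitor genes described in the text (right), with dashed lines at 2-fold and called genes in red. The arrowhead marks Il6, drawn at its floor because the IL-6 library had 0 counts. Socs3 stands at 4.67 while the JAK genes lie within 2-fold.

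Known STAT3 target genes lay on the OSM side. Of 25 compared, 14 were higher and 0 lower, against 4.24% and 5.42% of all compared genes, and the median log2 fold change was 1.18. The list was written with earlier results of these data known. Besides Steap4, Timp1, Socs3, Serpina3n and Cebpd, its higher members included Lcn2, the iron-sequestering lipocalin, with 82 counts with IL-6, 651 with OSM and 95 with vehicle (log2 2.85, 95% CI 2.51 to 3.20). Bcl3, a nuclear partner of NF-κB, had 100, 767 and 118 counts (log2 2.80). Lrg1, a leucine-rich glycoprotein of the acute phase, had 176, 829 and 156 counts (log2 2.09).

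The remaining higher members, named after their values were seen, were Junb, Cebpb, Bcl2l1, Fos, Hif1a and Osmr, with log2 fold changes of 1.52, 1.48, 1.44, 1.33, 1.18 and 1.15. With the length trend removed Cebpb and Fos lost their call, leaving 12 of 25 higher. Other targets were not called. Pim1, a STAT3-induced survival kinase, had 606 counts with IL-6, 510 with OSM and 454 with vehicle (log2 -0.39). Myc, the growth regulator, had 2590, 3602 and 2078 (log2 0.33, 95% CI 0.26 to 0.41).

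Promoter motif shares over the called genes were as follows. In RefSeq promoters, which 10086 of 12722 compared protein-coding genes had, TTCNNNGAA occurred in 10.2% of 391 promoters of genes higher with OSM, in 9.09% of 451 of genes lower and in 8.27% of all. TTCCNGGAA, which is contained in the first motif, occurred in 2.81%, 1.55% and 1.56%. TGANTCA, the form bound by AP-1, occurred in 10.7%, 7.54% and 6.13%. The interferon-stimulated response element, searched as GAAA repeated after a gap of 2 bases, occurred in 4.60%, 2.44% and 3.48%. In the wider GRCm39 windows the shares for TTCNNNGAA were 17.0% of 524 genes higher, 13.6% of 575 genes lower and 15.2% of all. Those for TTCCNGGAA were 3.05%, 1.74% and 2.29%, those for TGANTCA 15.6%, 11.7% and 11.3%, and those for the interferon element 7.63%, 7.30% and 6.98%. For TTCNNNGAA and the interferon element the genes lower with OSM thus changed sides of the background between the windows. These shares are descriptions, and most genes higher with OSM held no STAT motif in either window.

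Acute phase, coagulation and protease genes were also among those called. Of 13 compared acute phase and complement genes 5 were higher and 0 lower, beside 4.24% and 5.42% of all compared genes. The 5 included Clu, the extracellular chaperone clusterin, which was named after its value was seen. Clu had 19975 counts with IL-6, 76987 with OSM and 18393 with vehicle (3.49-fold higher). Of 17 coagulation and fibrinolysis genes 8 were higher and 1 lower, beside the same shares of all compared genes. Their median of 1.44 was the highest among the 34 pathway lists. The lists were chosen with earlier results of these data known, and this one includes the leading genes Thbd, Anxa2 and S100a10, so its rank is no independent result.

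Both arms of the system were among those 8, several of which were named after their values were seen. Thbd, Procr (the endothelial protein C receptor) and Pros1 (protein S, the cofactor of activated protein C) belong to the anticoagulant side. Procr had 86 counts with IL-6 and 355 with OSM (log2 1.90), and Pros1 had 33 and 182 (log2 2.32). Plau, Plaur, Anxa2 and S100a10 act in plasminogen activation. Plau, the urokinase gene, had 0 counts with IL-6, 42 with OSM and 32 with vehicle, so that the IL-6 library stood below both others. F8, coagulation factor VIII, was lower, with 69 counts with IL-6 and 18 with OSM (log2 -2.08). With the length trend removed 6 of the 17 were higher and 0 lower.

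Among 18 compared serpins 5 were higher and 1 lower, beside 4.24% and 5.42% of all compared genes. Serpinb1c, at 0 counts with IL-6, 18 with OSM and 4 with vehicle, was 5.44-fold higher against the floor of 3 counts (lower bound log2 1.99). Serpina3c was lower, at 138, 22 and 90 counts (log2 -2.79, 95% CI -3.51 to -2.13). Serpina3n and Serpina3c lie in 1 serpin cluster on chromosome 12 and stood on opposite sides. Of 21 metalloproteinases and TIMPs 5 were higher and 1 lower, beside the same shares of all compared genes. Adamts4, a protease that cleaves aggrecan and versican, had 10, 193 and 6 counts (log2 4.13) and Adamts9 had 64, 224 and 64 (log2 1.67). Adam8 had 18, 2 and 11 counts (log2 -3.31, 95% CI -6.46 to -1.25).

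Matrix genes were split, with 2 of 33 higher and 4 lower (median 0.13), beside 4.24% and 5.42% of all compared genes. Thbs4, a matricellular thrombospondin of stressed myocardium, had 79, 929 and 114 counts (log2 3.41, 95% CI 3.08 to 3.76). Col1a2 had 41, 6 and 14 counts and Col6a1 had 17, 0 and 18. Vcan, which encodes versican, had 24, 0 and 10. Of 10 fibroblast markers 7 were compared, with 0 higher, 1 lower and a median of -0.16. All 10 together held 389 counts with IL-6, 434 with OSM and 400 with vehicle. Those not compared, Col1a1, Tcf21 and Mfap5, had at most 2 counts with IL-6 and 0 with OSM.

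Transcription factors of the early response were more often higher than lower. Of 32 AP-1, immediate early and C/EBP factors 9 were higher and 1 lower (median 0.79), beside 4.24% and 5.42% of all compared genes. Ier2 had 329 counts with IL-6, 1714 with OSM and 370 with vehicle (log2 2.24), and Ier3 had 2189, 8997 and 2036 (log2 1.90). Maf was the lower member, at 286, 96 and 248 counts (log2 -1.72). The other higher members, named after their values were seen, were Klf2, Egr1, Junb, Cebpb, Fosl1 and Fos, between log2 1.33 and 1.69, the last 3 of which lost their call with the length trend removed.

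Inhibitors of the MAP kinase cascade, which is itself a known branch of OSM receptor signaling, contributed 3 higher and 0 lower of 19. Over all compared genes the shares were 4.24% and 5.42%. Spred3 had 15, 456 and 20 counts (log2 4.78, 95% CI 4.05 to 5.63). Dusp6, the phosphatase of ERK, had 251, 2123 and 285 (log2 2.94) and Dusp5 had 249, 1215 and 237 (log2 2.15). None of the other 16 members was called.

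Of 26 EGF and FGF family genes 5 were higher and 3 lower, beside 4.24% and 5.42% of all compared genes. Next to Egfr, the ligand gene Hbegf had 966 counts with IL-6, 4244 with OSM and 889 with vehicle (log2 1.99). Tgfa, another ligand of this receptor, had 34 and 114 counts with IL-6 and OSM (log2 1.60). Erbb4, the neuregulin receptor of myocytes, had 129 and 42 (log2 -1.76), and the ligand gene Nrg4 had 59, 12 and 22 with IL-6, OSM and vehicle (log2 -2.44). Fgf7 had 38, 4 and 32 counts (log2 -3.39). Receptors and ligands of the EGF family thus stood on both sides, Tgfa and Erbb4 having been named after their values were seen. Erbb4 lost its call with the length trend removed.

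Genes of IL-1, TNF and NF-κB signaling were higher in 7 of 32 cases and lower in 0, with a median of 0.66. Over all compared genes the shares were 4.24% and 5.42%. Litaf, an endosomal protein first described as an LPS-induced TNF factor, had 160, 1832 and 147 counts (log2 3.38). Il17ra, the IL-17 receptor chain, had 321, 1762 and 332 (log2 2.32), and Myd88, the adaptor of Toll-like and IL-1 receptors, had 725, 3177 and 673 (log2 1.99). Il4ra, Tnfaip2 and Tnfrsf1a completed the 7 with Bcl3, between log2 1.11 and 1.53, and were named after their values were seen. Tnfrsf1a lost its call with the length trend removed.

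Of the cytokine and chemokine genes 2 of 28 were higher and 2 lower, beside 4.24% and 5.42% of all compared genes. Il33, an alarmin stored in the nucleus, had 4, 55 and 6 counts (log2 3.64). Cxcl10, an interferon-induced chemokine, had 86 counts with IL-6, 28 with OSM and 35 with vehicle (log2 -1.76, 95% CI -2.43 to -1.13), so that the IL-6 library stood apart here. Cxcl9 had 0, 11 and 12 counts and Cxcl14 had 10, 0 and 4, both with few counts. Ccl2 had 29, 60 and 14 counts (log2 0.91) and was not called.

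Of 39 interferon-stimulated genes compared, 0 were higher and 2 lower, with a median of -0.28. Ifit1, a sensor of viral RNA, had 94 counts with IL-6, 16 with OSM and 94 with vehicle (log2 -2.70, 95% CI -3.56 to -1.92). Ifit2 had 99, 28 and 115 (log2 -1.96). In both the OSM count was the low one. The share called lower, 2 of 39, is near the 5.42% of all compared genes.

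Among genes of the fetal and stress program of myocytes, 6 of 26 were higher and 0 lower, with a median of 0.65. The shares of all compared genes were 4.24% and 5.42%. Rcan1, an inhibitor of calcineurin, was among the most abundant of all called genes, with 15845 counts with IL-6, 125047 with OSM and 16124 with vehicle (7.15-fold; log2 2.84, 95% CI 2.81 to 2.86). Runx1, a transcription factor seen in dedifferentiating myocytes, had 105, 776 and 129 counts (log2 2.74). The remaining higher members, named after their values were seen, were Nppb, the B-type natriuretic peptide, at log2 1.64 and Ankrd1, a stretch-responsive nuclear protein, at log2 1.13, which lost its call with the length trend removed.

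Other members of the program were not called. Nppa, the atrial natriuretic peptide, had 569, 995 and 530 counts (log2 0.66, 95% CI 0.51 to 0.82). Acta1, skeletal actin, had a log2 difference of 0.49, and Myh7, the fetal myosin of mouse ventricle, had 739, 791 and 511 counts (log2 -0.04, 95% CI -0.19 to 0.10). Myh6, the adult myosin, had a log2 difference of -0.04.

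Of the cytoskeletal genes 14 of 44 were higher and 1 lower (median 0.84), beside 4.24% and 5.42% of all compared genes. Nes, the intermediate filament nestin, had 1567 counts with IL-6, 9059 with OSM and 1707 with vehicle (log2 2.39). Tubb6, a β-tubulin, had 2843, 14898 and 2638 (log2 2.25). Rnd1, described above, is also a member, with the largest value of the list (log2 3.60). The other higher members, named after their values were seen, were Tuba1a, Tuba1b, Tuba1c, Tubb2a, Tubb4b, Actb, Myh9, Tpm3, Tpm4, Tmsb4x and Tmsb10, between log2 1.05 and 2.17. With the length trend removed 8 of the 44 were higher and 2 lower.

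The heat shock genes called encode small heat shock proteins. Hspb1 had 9835 counts with IL-6, 48143 with OSM and 9114 with vehicle (log2 2.15), although 89.0% of its transcript matches sequence elsewhere in the genome. Cryab, αB-crystallin of the Z-disc, had 59468, 149051 and 56207 counts (log2 1.18) and Hspb2 had 798, 2096 and 896 (log2 1.25). Most of Hspb2 overlaps Cryab on the opposite strand, so reads there cannot be told apart if counting ignored the strand. Cryab and Hspb2 are short, at 1479 and 834 bases, and neither was called with the length trend removed (log2 0.76 and 0.69). In the heat shock list 2 of 26 were higher and 0 lower, beside 4.24% and 5.42% of all compared genes. Of the unfolded protein and integrated stress response genes 0 of 34 were higher and 2 were lower, beside the same shares. The lower ones were Ern1 and Atf6, both sensors in the endoplasmic reticulum, at log2 -1.26 and -1.04. Neither was called with the trend removed.

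Survival and iron genes added a few members. Bcl2l1, which encodes BCL-XL, had 721, 2159 and 677 counts (log2 1.44) and the kinase gene Pim3 had 1593, 6039 and 1333 (log2 1.78). Hrk, a pro-apoptotic BH3 protein, had 35, 6 and 24 (log2 -2.69). The metallothioneins Mt1 and Mt2, which bind zinc and copper, had log2 fold changes of 1.31 and 1.60, and 0.84 and 0.97 with the length trend removed. Hamp, the iron hormone hepcidin, had 0, 18 and 2 counts and was 5.44-fold higher against the floor of 3 counts (lower bound log2 1.99).

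In the hypoxia and VEGF list 6 of 28 were higher and 0 lower, beside 4.24% and 5.42% of all compared genes. The list median was still 0.019 (-0.063 when scaled by library totals). Ndrg1, a hypoxia-responsive gene, had 292 counts with IL-6, 2692 with OSM and 242 with vehicle (log2 3.06). Slc2a1, the glucose transporter GLUT1, had 2709, 8125 and 2487 (log2 1.44). Bhlhe40, a repressor shared with the clock, had 2454, 7999 and 2366 (log2 1.56). Vegfa itself had 3446, 3089 and 3152 counts (log2 -0.30, 95% CI -0.37 to -0.23) and was not called.

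**Figure D5:**
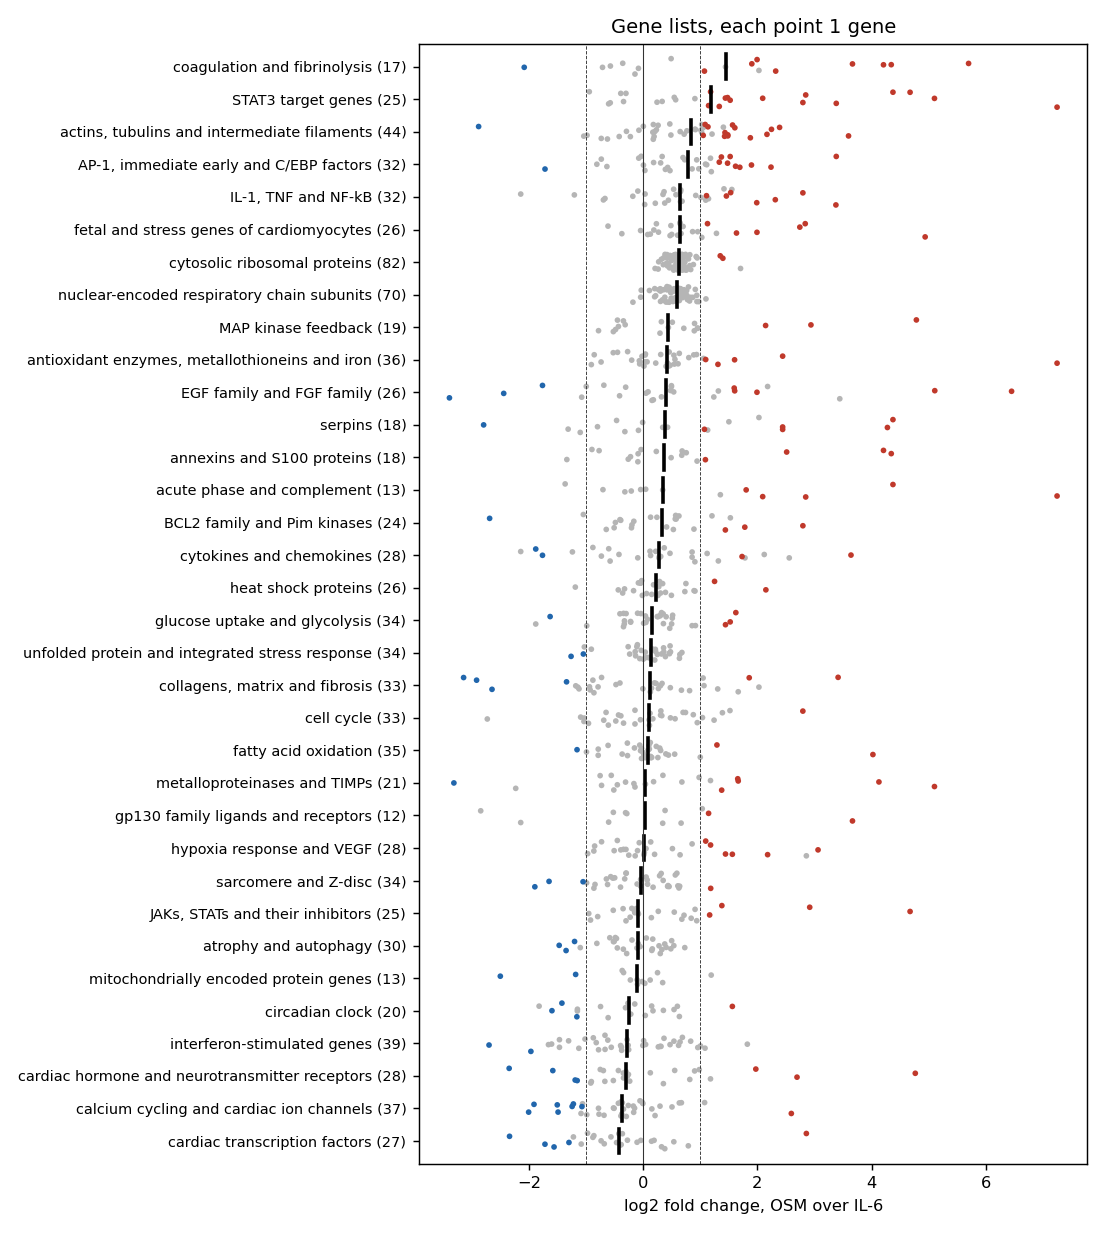
Log2 fold change (OSM over IL-6) of every compared gene in the 34 pathway lists, ordered by the list median (black bar), with the number of compared genes in brackets. Red genes are called higher, blue called lower and grey not called; dashed lines mark 2-fold, and genes at 0 counts are drawn at the floor. Coagulation genes (median 1.44) and STAT3 targets (1.18) are at the top, and cardiac transcription factors (-0.42) at the bottom.

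On the other side, the genes lower with OSM had smaller folds. Of the leading ones, Uprt, related to uracil phosphoribosyltransferases, had 495 counts with IL-6, 91 with OSM and 423 with vehicle (log2 -2.59). Hipk2, a nuclear kinase, had 5056, 1094 and 4391 (5.10-fold lower). Chrm2, the M2 muscarinic receptor through which the vagus slows the heart, had 1910, 415 and 1823 (5.08-fold lower; log2 -2.34, 95% CI -2.50 to -2.19). Esrrg, the orphan receptor ERRγ that drives oxidative metabolism, had 1402, 306 and 1278 (5.05-fold lower). In each of these the vehicle count lay near the IL-6 count.

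Pdpr, the regulatory subunit of pyruvate dehydrogenase phosphatase, had 3009 counts with IL-6, 680 with OSM and 2697 with vehicle (4.88-fold lower), and the predicted gene Gm19410 had 2446, 543 and 2233 (4.97-fold lower). Sox4, a developmental transcription factor, had 1474, 346 and 1180 (4.70-fold lower). Nt5c1a, a cytosolic nucleotidase that makes adenosine, had 319, 75 and 255 (4.69-fold lower). Pik3ip1, an inhibitor of PI3 kinase, had 890, 221 and 732 (4.44-fold lower), Asb15, a muscle ubiquitin ligase adaptor, 977, 248 and 944 (4.35-fold lower), and Ankhd1 1856, 447 and 1661 (4.58-fold lower).

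Genes that were near absent with OSM included Gcnt1, a glycosyltransferase of O-glycans, with 233 counts with IL-6, 12 with OSM and 196 with vehicle (21.4-fold lower; log2 -4.42, 95% CI -5.39 to -3.59). Ky, the kyphoscoliosis peptidase of muscle, had 186, 26 and 171 (7.89-fold lower). H4c14, a histone gene, had 115, 6 and 60 counts, with the vehicle count between the others. F830016B08Rik had 286, 26 and 299 and Gm14412 had 72, 7 and 56. Gm3435 had 59, 4 and 24, with 98.6% of its transcript matched elsewhere, so its value is uncertain.

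Excitation and conduction genes were more often lower than higher. Of 37 calcium cycling and ion channel genes 7 were lower and 1 higher, beside 5.42% and 4.24% of all compared genes. Values below 0 numbered 29 of 37, with a median of -0.37 (-0.20 with the length trend removed). Gja1, the gap junction protein connexin 43, had 9621 counts with IL-6, 2648 with OSM and 9722 with vehicle (4.01-fold lower; log2 -2.00, 95% CI -2.07 to -1.94). Kcnj3, a subunit of the potassium channel that M2 receptors open, had 858, 252 and 795 (3.76-fold lower). Abcc9, the sulfonylurea receptor SUR2, had 5145, 2004 and 4210 (2.83-fold lower).

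The other lower members, named after their values were seen, were Ryr2, Cacna1c, Cacnb2 and Cacna2d1, at log2 -1.49, -1.24, -1.22 and -1.07. With the length trend removed these 4 lost their call, and 3 of the 37 were lower and 2 higher. Kcna5 was higher, at 0, 20 and 8 counts. Pln, phospholamban, had 9540, 10138 and 9049 counts (log2 -0.05).

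Among cardiac transcription factors 4 of 27 were lower and 1 higher (median -0.42), beside 5.42% and 4.24% of all compared genes. Ppara, the fatty acid sensor, had 307 counts with IL-6, 103 with OSM and 300 with vehicle (log2 -1.72, 95% CI -2.05 to -1.39). Ppargc1a, the coactivator PGC-1α of mitochondrial biogenesis, had 937, 351 and 1035 (log2 -1.56, 95% CI -1.74 to -1.38). Mef2c was at log2 -1.30, named after its value was seen and not called with the length trend removed, and Gata4 had 3050, 2022 and 2750 counts (log2 -0.73) and was not called. Nfatc4 was higher, at 4, 32 and 8 counts.

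Of 35 fatty acid oxidation genes 2 were higher and 1 lower, beside 4.24% and 5.42% of all compared genes (median 0.094, and -0.051 with the length trend removed). Plin2, the lipid droplet coat protein, had 3436, 9288 and 3379 counts (log2 1.29) and Acot2, a mitochondrial thioesterase, 4573, 2264 and 4341 (log2 -1.16). Of 34 glucose genes 3 were higher and 1 lower (median 0.16), beside the same shares of all compared genes. Pfkfb3 and Pfkfb2, which set the level of the glycolytic activator fructose-2,6-bisphosphate, stood on opposite sides, with 171 counts with IL-6 and 543 with OSM for Pfkfb3 (log2 1.53) and 518 and 185 for Pfkfb2 (log2 -1.63). Gapdh had only 105, 357 and 147 counts, and 88.6% of its transcript matches sequence elsewhere, so its value is uncertain.

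Nuclear-encoded respiratory chain genes lay above 0 in most cases. None of 70 was called and 67 lay above 0, with a median of 0.60, and 0.14 with the length trend removed. Cytosolic ribosomal protein genes had 82 of 82 values above 0 and a median of 0.63, and 0.26 with the trend removed; 2 of them, Rps27a and Rps27, were called, and neither was called with the trend removed. These lists are made of short genes, with median lengths of 1327 and 1736.5 bases. Of 13 mitochondrially encoded genes 2 were lower, beside 5.42% of all compared genes. mt-Nd5, a subunit of complex I, had 464744 counts with IL-6, 226261 with OSM and 453315 with vehicle (log2 -1.18), and mt-Nd4l had 1947, 380 and 1442 (5.65-fold lower), with its whole transcript matched elsewhere.

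Of 34 sarcomere and Z-disc genes 1 was higher and 3 were lower, beside 4.24% and 5.42% of all compared genes. Their values changed with the length correction. Ttn encodes the giant spring protein titin and has a listed gene length of 117334 bases. It had 20398 counts with IL-6, 7191 with OSM and 18901 with vehicle (log2 -1.65), and 0.29 with the trend removed. The fitted trend for Ttn was -1.94, at a length far above the median of the longest eighth (12137 bases). Its corrected value is therefore uncertain. Xirp2 had 30354, 16170 and 29804 (log2 -1.05) and was not called with the trend removed. Nebl, the nebulin relative nebulette, had 6767, 2008 and 6426 (log2 -1.89, 95% CI -1.97 to -1.82).

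Atrophy genes were lower in 3 of 30 cases and higher in 0, beside 5.42% and 4.24% of all compared genes. Fbxo32, the muscle ubiquitin ligase atrogin-1, had 5210 counts with IL-6, 2077 with OSM and 5263 with vehicle (log2 -1.47). Fbxo40, a muscle F-box protein, had 14548, 6306 and 13061 (log2 -1.35), and Foxo3, the transcription factor that drives atrophy genes, had 2537, 1219 and 2345 (log2 -1.20, and -0.97 and not called with the length trend removed). Of 20 clock genes 3 were lower and 1 higher, beside the same shares of all compared genes. Rora had 1046, 382 and 1060 counts (log2 -1.59), Clock 3004, 1238 and 2372 (log2 -1.42) and Nr1d2 4544, 2245 and 4207 (log2 -1.16). With the length trend removed Rora (log2 -1.02) and Clock (log2 -0.81) were not called.

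Among 28 receptors for hormones and neurotransmitters 3 were higher and 4 lower, beside 4.24% and 5.42% of all compared genes. Apart from Chrm2, the lower members, named after their values were seen, were Nr3c2, the mineralocorticoid receptor, Insr, the insulin receptor, and Igf2r, at log2 -1.58, -1.19 and -1.15; Insr and Igf2r lost their call with the length trend removed. Ptger4, a prostaglandin E2 receptor, was higher at 2, 60 and 3 counts (log2 4.77, 95% CI 2.85 to 7.84), and Npr1, the natriuretic peptide receptor, at 7, 50 and 9 (log2 2.69). Adora2b had 0, 13 and 0 counts. Of 33 cell cycle genes 1 was higher, Ccnb2, at 0, 23 and 3 counts, and 0 were lower (median 0.11), beside the same shares of all compared genes.

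Long noncoding RNAs were called in both directions. The most abundant of those higher with OSM were E230013L22Rik at 198, 552 and 145 counts (log2 1.34), the unnamed gene ENSMUSG00000120078 at 28, 426 and 41 (log2 3.79) and 1200007C13Rik at 40, 321 and 81 (log2 2.86). Of those lower, besides Xist, 9230112J17Rik had 661, 223 and 587 (log2 -1.71) and Gm36827 646, 207 and 569 (log2 -1.78). For Gm36827, 85.3% of the transcript matched elsewhere. With the length trend removed E230013L22Rik (log2 0.99) and Xist (log2 -0.73) were not called. Genes that overlap another gene on the opposite strand made up 43.8% of all compared genes, and because it is not stated whether counting used the strand, reads of such partners cannot be told apart. Timp1, Anxa2, Cebpd, Phox2a, Slc10a6, Egfr and Kbtbd11 are among the leading genes with such an overlap, as are Hipk2, Chrm2, Esrrg, Gm19410, Pdpr, Ankhd1, Pik3ip1, F830016B08Rik and Gm3435.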

How the data were processed

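Poly-A RNA of cultured adult mouse cardiomyocytes was sequenced as paired reads in 1 pooled library per condition. The authors deposited whole-number counts per gene, not normalized, and FPKM values. The deposited FPKM equal the count divided by gene length and by 1 constant per library. Reads were mapped to GRCm39 (mm39). The submitters' processing notes name fastp, HISAT2 2.2.1, featureCounts 2.0.6 and edgeR 4.0.16, whereas the paper names other releases of featureCounts and edgeR. Whether counting used the strand, and the annotation release, are not given in the sources used here.

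The OSM and IL-6 counts were scaled by TMM over all genes (edgeR 4.0.16, R 4.3.3). Genes with 10 or more summed counts were compared by the log2 ratio of scaled counts with the 95% Clopper-Pearson interval, and called when the whole interval lay beyond 2-fold. A library at 0 was set to a floor of 3 counts. This floor equals 0.114 CPM in the IL-6 library and 0.0975 CPM in the OSM library. The rule was tested on simulated data. Transcript copies elsewhere in GRCm39 were searched with blastn at 97% identity or more for the named genes. The named genes were the 12 largest folds in each direction among called protein-coding genes at 1 FPKM or more in both libraries, 6 in each direction that cross 1 FPKM (ranked by the interval bound nearest 1), up to 4 called members per pathway list, all gp130 and JAK/STAT genes, the 3 most abundant called long noncoding RNAs in each direction, and the 6 genes Thbd, Timp1, Socs3, Sprr1a, Serpinb1a and Vegfa. The members and lists were chosen with earlier results of these data known. Alternatives were other scalings, count minimums, thresholds, intervals, an exact test with an assumed dispersion, thinning to the smaller total, removal of the length trend, and restricted gene sets. Some items that the rule names are not reported here.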

Additional observations from a re-analysis of the deposited data

How the results depend on the processing

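Main counts were 659 genes higher and 843 lower with OSM. They moved by over 1.5 times, higher and lower, to 325 and 406 with at least 100 summed counts, 1557 and 1981 by the point estimate without an interval, 151 and 124 beyond 4-fold, 356 and 470 among genes without opposite-strand overlap, and, with edgeR's exact test at an assumed biological coefficient of variation (BCV), 1137 and 1533 at 0.1 and 57 and 20 at 0.4. The sets with 100 counts and beyond 4-fold are smaller by construction. The genes without opposite-strand overlap were both fewer and scaled anew. Of the main calls, 248 higher and 406 lower genes had such an overlap and were left out by construction. The only other change was the new scale. All 356 higher and 437 of the 470 lower were also called in the main comparison. The 99% interval gave 437 higher. At a BCV of 0.2 the exact test called 709 and 891, of which 638 and 813 were also called in the main comparison. DESeq2 size factors, library totals, the scale of the authors' FPKM, no count minimum, thinning, removal of the length trend and protein-coding genes alone kept both counts within 1.5 times. Scaling by library totals shifted the median of all genes to -0.079 and gave 544 higher and 979 lower.

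Of the named genes, Ttn reversed with the length trend removed, to 0.29, a value that is uncertain at its extreme length. Another 14 lost their call there, while library totals cost 3 calls and thinning 1. Of 46 list medians, 6 changed sign with the length trend removed, among them JAKs and STATs, sarcomere genes, fatty acid oxidation and the unfolded protein response, and 3 with library totals (gp130 family, hypoxia, metalloproteinases). No paired analysis was possible because each condition has 1 library, and for the same reason no library could be left out.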

Other observations

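In some genes the IL-6 count was farther from the vehicle count than the OSM count was. The genes given here are examples. Others described above, such as Col1a2 and Vcan, also had this order, and such genes were not counted. Cxcl10 had 86 counts with IL-6 against 28 with OSM and 35 with vehicle, and Nrg4 had 59 against 12 and 22. Plau had 0 counts with IL-6, 42 with OSM and 32 with vehicle. These genes were named after their values were seen and no test bears on them. Trbc2, the constant segment of a T cell receptor chain, had 0 counts with IL-6, 66 with OSM and 0 with vehicle. Cd3e, Cd3g and Trac had 0 counts in all libraries and Cd3d had 0, 4 and 0. The whole list of 8 T cell markers held 12 counts with IL-6, 70 with OSM and 7 with vehicle. Its IL-6 and vehicle counts thus lay in the other members, which are among Cd4, Cd8a and Lck.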
